A study of Mus musculus with 12 samples.

Results

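The genes described here code for the machinery that takes new proteins into the endoplasmic reticulum (ER), cuts, glycosylates and folds them there. Also listed are Xbp1, a regulator of the ER stress response, and Herpud1, a protein of ER-associated degradation. The genes were chosen by name: 40 genes were listed, and a gene was measured where a probe set of the array carried its symbol and no other. That held for 37 of 40 members, and all 37 were among the 10371 genes tested, each read from its brightest probe set. Sec61g, Srp54a and Srp72 had no probe set of their own. Spinal cord RNA of C57BL/6 females, wild type and 10 weeks old, was read on 12 Affymetrix arrays in 4 groups of 3 biological replicates. Injured mice had laminectomy and a cut through 80% of the cord; the control mice, called naive in the titles and sham in the design notes, had laminectomy alone. In both, 9 hours passed before a 2.5 cm piece of cord spanning the site was removed, and each homogenate gave total RNA (5 µg labelled) and, after a sucrose gradient, polysome-bound RNA (3 µg labelled), that is, mRNA carrying several ribosomes. The labels do not say whether 1 array holds 1 cord or a pool, and no group without an operation was analysed here.

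Proteins bound for the ER, the Golgi, the cell surface or secretion are recognised by the signal recognition particle as their signal sequence leaves the ribosome, and are passed through the SEC61 channel into the ER. There the signal peptidase removes the signal, the oligosaccharyltransferase adds N-glycans, and chaperones and disulfide isomerases fold the chain. When unfolded chains build up, the sensors IRE1, PERK and ATF6 act: IRE1 splices Xbp1 mRNA so that it codes for an active transcription factor, ATF6 is cut to release another, and both raise chaperone genes, while PERK slows translation. In the spinal cord, oligodendrocytes and neurons depend on this route for myelin proteins, receptors and channels, and ER stress markers are a known feature of cord injury.

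The ER stress elements through which ATF6, with the CCAAT-box factor NF-Y, and XBP1 act are short and known, so the promoters of the members were searched for them. RefSeq promoters of assembly GRCm38.p6, each from 250 bases before to 50 bases after the transcription start, were found for 34 of the 40 members. Both strands were searched for ERSE (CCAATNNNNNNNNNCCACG), ERSE-II (ATTGGNCCACG) and the core of the XBP1 element UPRE (TGACGTGG). ERSE was present in 6 of 34 members (17.6%), against 37 of 27025 genes (0.137%). ERSE-II was present in 2 members (5.88%), against 12 genes (0.0444%), and the UPRE core in 0 members, against 193 genes (0.714%). The counts over all genes include the members. Since these elements were already known to raise chaperone genes, and the members were listed by name, the shares are a description and no test. ERSE and ERSE-II share the letters CCACG and no member held both. The matched stretches are shown because most of them lie at chaperone genes (6 of the 9 in that role; Dnajb9 and Sdf2l1 held none, and Hyou1 was not in the promoter table); capitals mark the fixed letters of the motif, and each stretch is read 5′ to 3′ along the motif.
Hspa5, ERSE, chr2:34772020-34772048, plus strand: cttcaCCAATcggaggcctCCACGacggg
Hsp90b1, ERSE, chr10:86705633-86705661, minus strand: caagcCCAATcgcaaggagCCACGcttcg
Hsp90b1, ERSE, chr10:86705528-86705556, plus strand: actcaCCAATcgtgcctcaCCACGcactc
Calr, ERSE, chr8:84847070-84847098, plus strand: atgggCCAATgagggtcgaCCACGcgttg
Canx, ERSE, chr11:50325795-50325823, minus strand: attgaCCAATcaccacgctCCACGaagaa
Dnajc3, ERSE, chr14:118937822-118937850, plus strand: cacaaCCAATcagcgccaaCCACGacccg
Pdia6, ERSE, chr12:17266486-17266514, plus strand: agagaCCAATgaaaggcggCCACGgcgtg
Herpud1, ERSE-II, chr8:94386372-94386392, plus strand: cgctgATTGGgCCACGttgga
Dnajb11, ERSE-II, chr16:22857847-22857867, plus strand: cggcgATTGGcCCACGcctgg
Of these 8 genes, 6 code for chaperones or their partners, 1 (Pdia6) for a disulfide isomerase and 1 (Herpud1) for a protein of ER-associated degradation. No promoter searched of a targeting, translocon, signal peptidase or oligosaccharyltransferase member held ERSE or ERSE-II in this window. Srp19, Srp68, Sec61a1, Ssr2 and Spcs3 were not in the promoter table, so their promoters were not searched. A match is a stretch of letters, and binding was not measured.

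**Figure D1:**
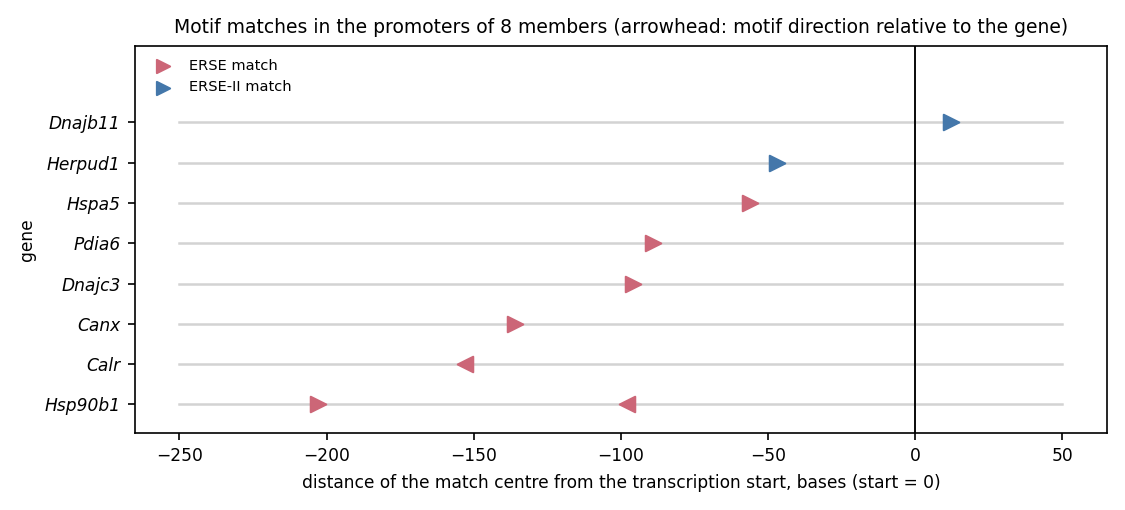
Positions of the ERSE (red) and ERSE-II (blue) matches in the promoters of 8 members, as the distance in bases of the centre of the match from the transcription start; grey lines are the stretch searched and arrowheads give the direction of the motif relative to the gene. The ERSE matches are centred at -203 to -56, and the ERSE-II matches at -47 for Herpud1 and 12 for Dnajb11.

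The arrays give 1 deposited log2 value per probe set. Arrays of a group correlated at 0.993 to 0.998 across genes, which are not independent replicates. All 37 members lay above every absent-control probe set on all 12 arrays. In total RNA the array medians averaged 7.76 (sham) and 7.78 (injured), against 7.25 and 7.18 on polysomes, so the fractions were not on 1 scale. Of 4 controls of RNA quality, Gapdh and Actb moved most with injury. The 3′ minus 5′ difference of the Gapdh control probe sets was 0.23 ± 0.05 in sham total RNA and 1.40 ± 0.22 in injured total RNA, and 0.87 ± 0.03 and 2.83 ± 0.27 on polysomes (log2, SD, n = 3). The Actb means were 1.46 (sham) and 1.80 (injured) in total RNA, with 1.68 and 3.26 on polysomes. For Pcx the means were 2.16 and 2.45 in total RNA and 2.50 and 2.47 on polysomes, and for Tfrc 0.85 and 0.65, and 0.18 and 0.14. On injured polysome array 1, 53.3% of all genes and 20 of 37 members had the lowest value of their group. Markers of neurons (7 of 7), oligodendrocytes (5 of 5 measured) and astrocytes (6 of 6) exceeded the absent controls on every array. In bulk cord, fewer cells of a type and less RNA per cell cannot be told apart.

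The injury comparisons ask whether transcripts of this machinery changed in amount and whether they changed on polysomes. A member is called where limma, fitted on all 12 arrays, gave a Benjamini-Hochberg adjusted p under 0.05 over 10371 genes. In total RNA 27 of 37 members rose after injury and 0 fell, with a median change of 0.33 on the log2 scale. Of all genes 42.1% rose and 18.1% fell, with a median of 0.12. On polysomes 2 members rose and 12 fell, with a median of -0.15, whereas 13.7% of all genes rose and 25.3% fell, with a median of -0.04. Read against those shares, as deposited, rises in total RNA were more frequent among members. The count of falls on polysomes was nearer the share of all genes. This reading is for the deposited scale only. These counts lean on the scale of the values. After quantile normalization, which gives every array the same distribution, 11 members rose and 3 fell in total RNA (all-gene median 0.01), and 4 rose and 11 fell on polysomes. On that scale 22.8% of all genes rose and 18.0% fell in total RNA, and 22.3% rose and 18.1% fell on polysomes. With each array centred on its median, 29 members rose and 0 fell in total RNA, against 42.1% and 18.2% of all genes. With centring 4 rose and 10 fell on polysomes, against 24.0% and 18.0%. Under the deposited values, under centring of each array on its median and under quantile normalization alike, 11 members rose in total RNA: Xbp1, Stt3a, Dnajc3, Dnajb9, Dnajb11, Sdf2l1, Sec61a1, Sec61b, Sec63, Spcs2 and Ssr1. Under all 3, Sec61a1 and Rpn1 rose on polysomes, and Calr, Canx, Pdia3, Pdia6, Ssr2, Ssr3, Ssr4, Rpn2, Ddost and Dad1 fell there. The share of all genes called alike on the 3 scales was not computed, so these lists have no background beside them. When all probe sets of a gene were averaged, Sec61a1 and Ssr1 did not pass in total RNA. Sec61a1 and Rpn1 then did not pass on polysomes.

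**Figure D2:**
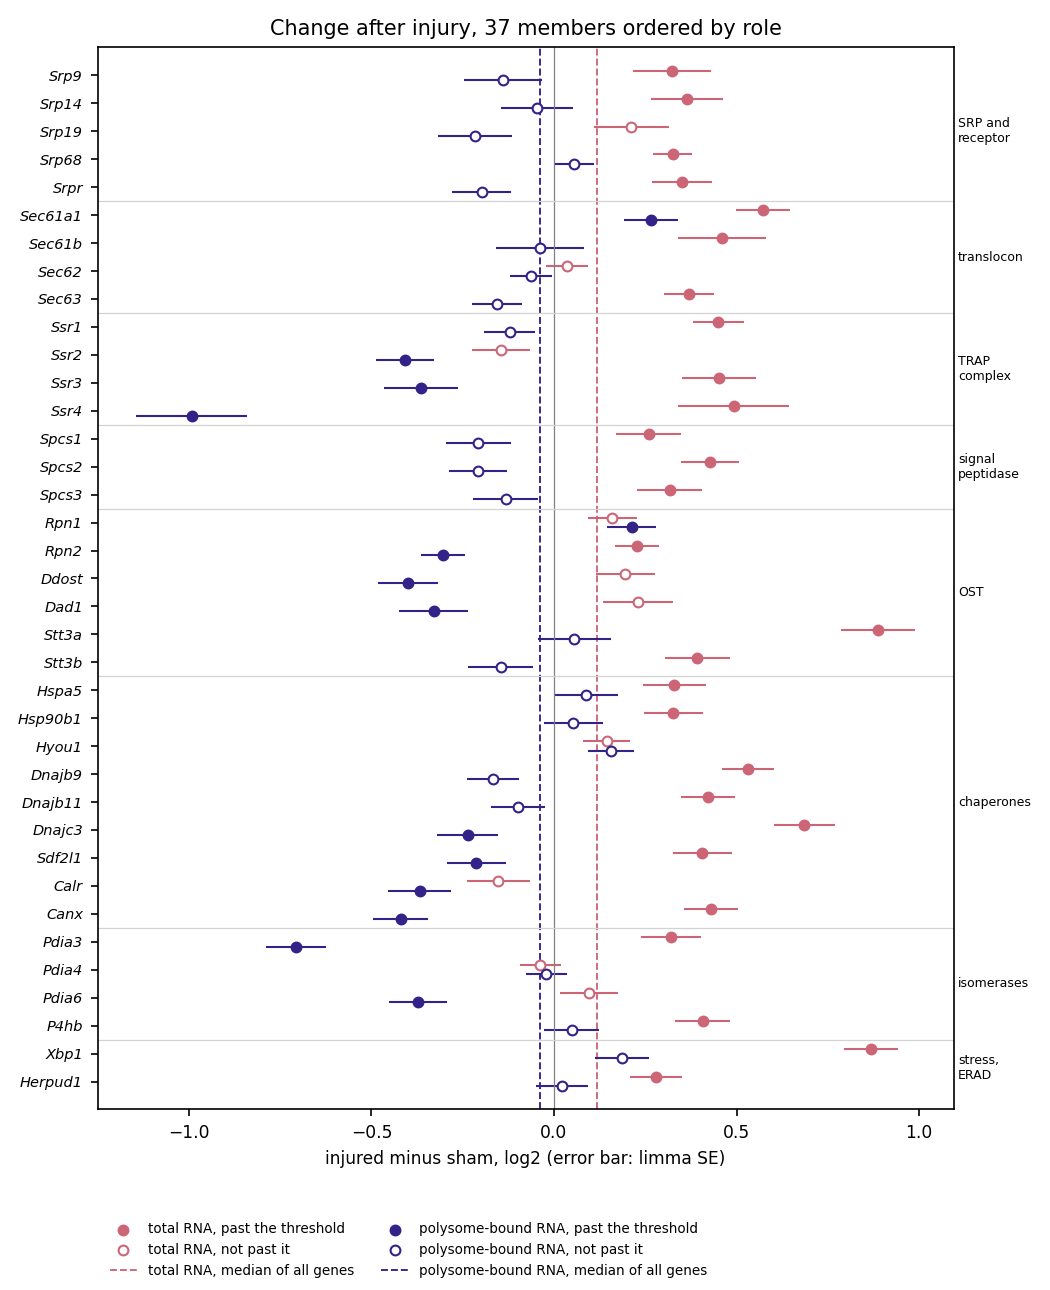
Change after injury (injured minus sham, log2) of 37 members grouped by role, in total RNA (red) and polysome-bound RNA (dark blue), with the limma standard error; filled points passed the threshold and dashed lines are the medians of all genes, 0.12 and -0.04. Most red points lie to the right of their line (27 filled), whereas the dark blue points spread to the left, out to -0.99 for Ssr4.

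Xbp1, the transcription factor whose mRNA IRE1 splices, had the second-largest rise of the list. In total RNA it read 10.10, 10.16 and 10.28 in sham cord and 11.15, 11.05 and 10.95 in injured cord, with no overlap. This is a rise of 0.87 (SE 0.07, 1.83-fold, adjusted p = 1.09e-06). On polysomes the values were 10.34, 10.34 and 10.41 in sham and 10.42, 10.59 and 10.63 in injured cord, a difference of 0.19 that did not pass the test (adjusted p = 0.059). It passed after quantile normalization (0.25) and after centring (0.27), whereas the Xbp1 probe set 1420886_a_at fell by 0.29 on polysomes (adjusted p = 0.0364). The total RNA rise was seen on 3 of its 4 kept probe sets, at 0.87, 0.65 and 0.37, and not on the dimmest (0.14). The deposited values hold no separate measure of the spliced form. Herpud1, a membrane protein of ER-associated degradation with an ERSE-II stretch, read 9.71, 9.67 and 9.70 in sham total RNA and 10.03, 9.95 and 9.96 after injury. That rise of 0.28 (SE 0.07, adjusted p = 0.00415) came to 0.03 after quantile normalization, which did not pass, and its other probe set changed by -0.03. Its polysome values, 9.81, 9.80 and 9.78 against 9.79, 9.99 and 9.68, overlapped, and the change there was 0.02.

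Chaperones and co-chaperones formed the largest role. In total RNA 7 of 9 rose and none fell, and on polysomes 0 rose and 4 fell (medians 0.41 and -0.17); after quantile normalization 4 rose and 1 fell in total RNA, and 1 rose and 2 fell on polysomes. Hspa5, which codes for BiP, the HSP70 of the ER lumen, read 11.09, 11.12 and 11.28 in sham and 11.60, 11.34 and 11.52 in injured total RNA. The groups did not overlap, and the rise was 0.33 (SE 0.09, 1.26-fold, adjusted p = 0.00505). On polysomes Hspa5 read 11.43, 11.45 and 11.69 in sham and 11.72, 11.54 and 11.57 in injured cord, which overlap, with a change of 0.09. Hsp90b1, which codes for the HSP90 of the ER (GRP94), went from 11.26, 11.13 and 11.32 to 11.58, 11.50 and 11.61 in total RNA, a rise of 0.33 (SE 0.08, adjusted p = 0.0036). Its polysome arrays read 11.20, 11.10 and 11.39 in sham and 11.41, 11.17 and 11.27 in injured cord. Both rises came to 0.05 after quantile normalization and did not pass there. On that scale these classical markers of the unfolded protein response stood near the all-gene median of 0.01, whereas Xbp1 stood at 0.62. A dimmer Hspa5 probe set, 1427464_s_at, rose by 0.55 in total RNA, and a dimmer Hsp90b1 probe set, 1438040_a_at, changed by -0.16 and did not pass. Hyou1, a nucleotide exchange factor for BiP, changed by 0.14 in total RNA and by 0.16 on polysomes, and neither passed.

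Read from the brightest probe sets, the J-domain partners of BiP rose by more than Hspa5 did in total RNA, with no test between genes. The order depends on the probe set: the dimmer Hspa5 probe set given above rose by more than Dnajb9 and Dnajb11. Dnajc3 (p58IPK), which also inhibits PERK, read 8.95, 9.07 and 9.12 in sham and 9.79, 9.64 and 9.76 in injured total RNA, a rise of 0.69 (SE 0.08, 1.61-fold, adjusted p = 2.08e-05). On polysomes it read 8.77, 8.65 and 8.93 in sham and 8.41, 8.65 and 8.58 in injured cord. These ranges touch, and its fall of 0.24 (adjusted p = 0.037) did not pass without sham polysome array 3 (-0.16) or without injured polysome array 1 (-0.17), nor without sham total array 2 or sham polysome array 1 (-0.24 both). The Dnajc3 fall did not pass after quantile normalization or centring either. Of its 4 other probe sets, 3 rose in total RNA by 0.36 to 0.64, and 1449372_at changed by 0.02. Dnajb9 (ERdj4), which assists degradation of misfolded chains, rose by 0.53 and Dnajb11 (ERdj3), a secreted co-chaperone with an ERSE-II stretch, by 0.42; neither passed on polysomes. Sdf2l1, a partner of the J-domain proteins, rose by 0.41 in total RNA and fell by 0.21 on polysomes. That fall did not pass after quantile normalization or centring, and passed in 4 of the 12 fits that leave out 1 array (-0.25 to -0.16 over them).

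The lectin chaperones, which hold glycoproteins during folding, went down on polysomes. Canx, the membrane-bound calnexin, read 11.30, 11.32 and 11.35 in sham and 11.77, 11.76 and 11.73 in injured total RNA, a rise of 0.43 (SE 0.07, adjusted p = 0.000287). Its polysome values were 10.86, 10.75 and 10.86 in sham and 10.43, 10.56 and 10.21 in injured cord, a fall of 0.42 (SE 0.07, adjusted p = 0.000576). As deposited, all injured arrays thus lay above sham in total RNA and below sham on polysomes. After quantile normalization the change in total RNA was 0.17 and did not pass, whereas the fall on polysomes passed. Of its other probe sets, 1422845_at gave 0.41 and -0.54, and the dimmer 1428935_at gave 0.17 and -0.01. Calr, the soluble calreticulin, did not pass in total RNA (-0.15, 95% interval reaching down to -0.34) and fell by 0.37 on polysomes (SE 0.09, adjusted p = 0.00386). Its 2 further probe sets fell there by 0.47 and 0.48.

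Disulfide isomerases form and rearrange disulfide bonds. Of 4 members, 2 rose in total RNA (none after quantile normalization) and 2 fell on polysomes, also after quantile normalization. Pdia3 (ERp57), which works with calnexin and calreticulin, had 1 kept probe set and read 10.14, 10.19 and 10.29 in sham and 10.64, 10.37 and 10.58 in injured total RNA, a rise of 0.32 (SE 0.08, adjusted p = 0.00432) that was 0.04 after quantile normalization. On polysomes it went from 10.00, 9.78 and 10.00 to 9.19, 9.29 and 9.18, a fall of 0.71 (SE 0.08, 1.63-fold, adjusted p = 2.14e-05). The injured polysome arrays lay below every other Pdia3 value. P4hb, the founding isomerase of the family, rose by 0.41 in total RNA and changed by 0.05 on polysomes, which did not pass. Pdia6, with an ERSE stretch, fell by 0.37 on polysomes and changed by 0.10 in total RNA, which did not pass. Pdia4 changed by -0.04 and -0.02, and neither passed.

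**Figure D3:**
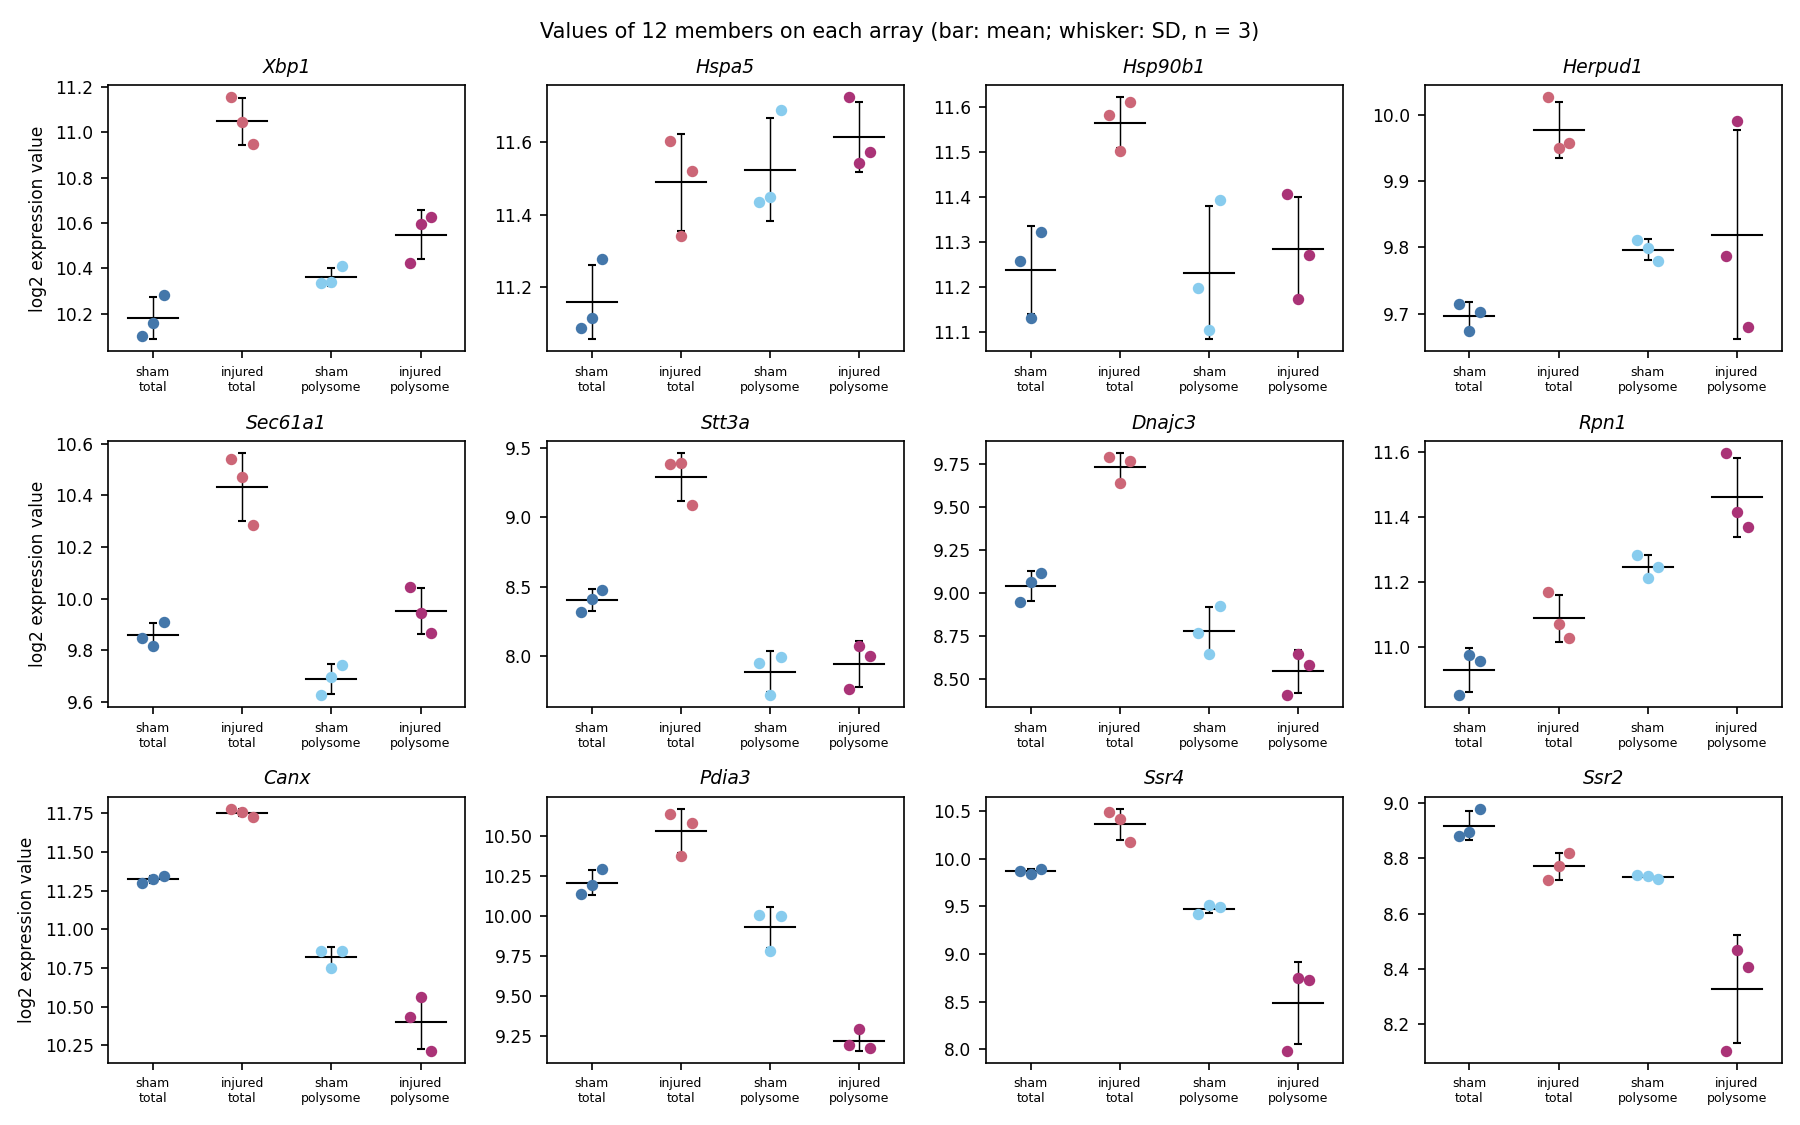
Deposited log2 values of 12 members on each of the 12 arrays (points), with the group mean (bar) and SD (whisker, n = 3); each panel has its own axis, which does not start at 0. In total RNA the injured arrays of Xbp1 (10.95 to 11.15), Stt3a and Dnajc3 lie above all others, whereas the injured polysome arrays of Canx, Pdia3, Ssr4 and Ssr2 lie below all others.

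The signal recognition particle brings ribosomes to the ER, and its receptor (Srpr, the alpha subunit) receives them. Of 5 measured members, 4 rose in total RNA by 0.32 to 0.36 (Srp9, Srp14, Srp68 and Srpr); Srp19 changed by 0.21 and did not pass. Srp9 did not pass without sham total array 2 or injured total array 1 (0.28 to 0.36 over the arrays left out). None passed after quantile normalization, when their changes spanned -0.08 to 0.09. On polysomes 0 of 5 passed, with changes of -0.22 (Srp19) to 0.06 (Srp68). Srp14, an RNA-binding subunit that slows elongation together with Srp9, read 10.81, 10.78 and 10.94 in sham and 11.30, 11.19 and 11.13 in injured total RNA. On polysomes it read 11.51, 11.54 and 11.41 in sham and 11.18, 11.47 and 11.67 in injured cord. Its injured polysome arrays therefore reached from below to above sham. Its 3 other probe sets changed by 0.21, 0.20 and 0.19 in total RNA, and none of these passed.

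The SEC61 channel and its SEC62 and SEC63 partners form the translocon. In total RNA 3 of 4 members rose and on polysomes 1 rose; after quantile normalization 3 again rose in total RNA, where Sec62 fell, and 1 on polysomes. Sec61a1, the pore subunit, was the only member to rise in both fractions as deposited; after quantile normalization and with centring Xbp1 did too. It read 9.85, 9.82 and 9.91 in sham and 10.54, 10.47 and 10.28 in injured total RNA (rise of 0.57, SE 0.07, 1.49-fold, adjusted p = 3.06e-05). On polysomes it read 9.63, 9.69 and 9.74 in sham and 10.05, 9.94 and 9.87 in injured cord (rise of 0.27, SE 0.07, adjusted p = 0.0108). Sec61a1 had 6 kept probe sets, and they disagreed: in total RNA 1434986_a_at, 1448242_at and 1455987_at rose by 0.38, 0.25 and 0.23, while the dim 1416190_a_at and 1416191_at (means of 6.61 and 6.98) fell by 0.55 and 0.38. The mean over its probe sets did not pass in either fraction (0.08 and 0.05). Sec61b, a small subunit of the channel, rose by 0.46 in total RNA, from 9.47, 9.38 and 9.51 to 10.10, 9.86 and 9.79. Its polysome values of 10.31, 10.44 and 10.16 in sham and 9.95, 10.37 and 10.47 in injured cord overlapped. Sec63, which lets BiP pull chains in, rose by 0.37 in total RNA and changed by -0.16 on polysomes, which did not pass. Sec62, which serves short secretory proteins, read 11.37, 11.17 and 11.34 in sham and 11.28, 11.34 and 11.36 in injured total RNA, a change of 0.04. After quantile normalization that value was -0.24 (adjusted p = 0.00593), so its direction rests on the scale.

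The translocon-associated protein (TRAP) complex, Ssr1 to Ssr4, sits beside SEC61 and helps some signal sequences enter. Here 3 of 4 subunits rose in total RNA and 3 of 4 fell on polysomes; after quantile normalization 1 rose and 1 fell in total RNA and the same number fell on polysomes. Ssr4, the delta subunit, had the largest fall of the list. Its values were 9.86, 9.84 and 9.89 in sham and 10.49, 10.41 and 10.18 in injured total RNA, a rise of 0.49 (SE 0.15, adjusted p = 0.0125). On polysomes it read 9.42, 9.51 and 9.50 in sham and 7.98, 8.74 and 8.72 in injured cord, a fall of 0.99 (SE 0.15, 1.99-fold, adjusted p = 0.00019). Array 1 of the injured polysome group was the lowest, and the other arrays also lay below sham. Without injured total array 1 the rise in total RNA was 0.43 and did not pass (adjusted p = 0.0539). The result belongs to 1 probe set, 1448524_s_at. The 2 dimmer Ssr4 probe sets, 1427096_s_at and 1435709_at, changed by -0.08 and -0.03 in total RNA and by 0.06 and -0.00 on polysomes, and none of these passed. Ssr2, the beta subunit, read 8.88, 8.89 and 8.98 in sham and 8.72, 8.77 and 8.82 in injured total RNA, a change of -0.15 that did not pass, though it passed after quantile normalization (-0.35). On polysomes Ssr2 went from 8.74, 8.74 and 8.72 to 8.10, 8.47 and 8.41, a fall of 0.41 (SE 0.08, adjusted p = 0.00118). Ssr3 rose by 0.45 in total RNA and fell by 0.36 on polysomes, and Ssr1 rose by 0.45 in total RNA and did not pass on polysomes (-0.12). With all probe sets of a gene averaged, both Ssr1 calls changed: it did not pass in total RNA and passed as lower on polysomes.

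Signal peptidase subunits were higher in injured total RNA as deposited. Spcs1, Spcs2 and Spcs3, of which Spcs3 is needed for cleavage, rose by 0.26, 0.43 and 0.32 in total RNA. Spcs1 did not pass without sham total array 2 or 3 or injured total array 1 or 2 (0.24 to 0.29 over the arrays left out). On polysomes they changed by -0.21, -0.21 and -0.13, and none passed. After quantile normalization Spcs2 alone rose in total RNA and Spcs1 fell on polysomes.

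The oligosaccharyltransferase transfers the N-glycan in 2 forms, with STT3A acting on chains as they enter and STT3B on sites that were skipped. Of 6 subunits, 3 rose in total RNA, and on polysomes 1 rose and 3 fell; after quantile normalization 1 rose in total RNA and the polysome counts were the same. Stt3a had the largest rise of the list in total RNA. It read 8.32, 8.41 and 8.48 in sham and 9.39, 9.39 and 9.09 in injured cord, a rise of 0.89 (SE 0.10, 1.85-fold, adjusted p = 1.14e-05) that was 0.80 after quantile normalization. Its polysome values of 7.95, 7.72 and 7.99 in sham and 7.76, 8.07 and 8.0 in injured cord overlapped, with a change of 0.06. Of its other probe sets, 1450841_at rose by 0.76 in total RNA, and 1423033_at, at a mean of 6.59, changed by 0.11 and did not pass. Stt3b, the other catalytic subunit, read 10.76, 10.76 and 10.85 in sham and 11.28, 11.13 and 11.14 in injured total RNA, a rise of 0.39 that came to 0.10 after quantile normalization and did not pass there. Its other probe set rose by 0.52. Its polysome values were 10.23, 10.20 and 10.46 in sham and 9.95, 10.22 and 10.28 in injured cord, which overlap.

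The accessory subunits of the complex did not move as 1 group. Rpn1 (ribophorin I) read 10.85, 10.98 and 10.96 in sham and 11.17, 11.07 and 11.03 in injured total RNA, a difference of 0.16 that did not pass (adjusted p = 0.0532). On polysomes it read 11.28, 11.21 and 11.25 in sham and 11.60, 11.42 and 11.37 in injured cord, a rise of 0.21 (SE 0.07, adjusted p = 0.0214). That rise did not pass without injured polysome array 1 (0.14), without sham polysome array 2 (0.20) or without sham polysome array 3 (0.21). Of its further probe sets, 2 also rose by 0.23 on polysomes, and 1416470_a_at and 1448353_x_at changed by 0.00 and -0.03. Rpn2, its partner, rose by 0.23 in total RNA and fell by 0.30 on polysomes. Ddost and Dad1 did not pass in total RNA (0.20 and 0.23, adjusted p = 0.0513 and 0.0502) and fell on polysomes by 0.40 and 0.33.

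Set side by side, the fractions give 6 patterns among the 37 members. In 19 members the transcript rose in total RNA and did not pass on polysomes, as did 23.5% of all genes. Hspa5, Hsp90b1, Xbp1, Stt3a, all 3 signal peptidase subunits and 4 members of the signal recognition particle role were among them. In 7 members it rose in total RNA and fell on polysomes, as did 8.69% of all genes: Canx, Pdia3, Dnajc3, Sdf2l1, Rpn2, Ssr3 and Ssr4. In 5 members (Ssr2, Ddost, Dad1, Calr and Pdia6) it fell on polysomes alone, as did 12.8% of all genes. Sec61a1 rose in both (after quantile normalization and with centring, Xbp1 too), Rpn1 on polysomes alone, and Srp19, Sec62, Hyou1 and Pdia4 passed in neither. After quantile normalization 0 members rose in total RNA and fell on polysomes: Canx, Pdia3, Rpn2, Ssr3 and Ssr4 fell on polysomes alone, and Dnajc3 and Sdf2l1 rose in total RNA alone. With centring 7 members rose in total RNA and fell on polysomes, with Ddost and Dad1 in place of Dnajc3 and Sdf2l1. The shares of all genes in these patterns were computed for the deposited values only, so the counts on the other scales have no background beside them. Passing in 1 fraction and not in the other is no test of a difference, for which the interaction serves.

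The interaction, the change on polysomes minus the change in total RNA, was below 0 and past the threshold in 29 of 37 members. No member was above 0 and past the threshold. Rpn1 (0.05), Pdia4 (0.02) and Hyou1 (0.01) were above 0 and did not pass. Over all genes 39.3% were called lower and 11.0% higher, and the medians were -0.50 for members and -0.16 for all genes. After quantile normalization 14 members were lower and 2 higher, with medians of -0.17 and -0.00, and 18.1% of all genes were lower. The same 14 were lower as deposited and after centring: Ssr1, Ssr3, Ssr4, Sec63, Spcs2, Ddost, Stt3a, Dnajb9, Dnajb11, Dnajc3, Sdf2l1, Canx, Pdia3 and Xbp1. How many of all genes were lower on every scale was not computed. Ssr4 had the largest difference, -1.48 (SE 0.21, adjusted p = 0.000148), followed by Pdia3 at -1.03 (SE 0.12, adjusted p = 3.9e-05), Dnajc3 at -0.92 (SE 0.12, adjusted p = 7.45e-05) and Canx at -0.85 (SE 0.11, adjusted p = 6.34e-05). The Ssr4 difference rests on its brightest probe set, and it was not called once _s_at and _x_at probe sets were excluded. The values were -0.83 for Stt3a and -0.68 for Xbp1. Hspa5 (-0.24), Hsp90b1 (-0.27), Calr (-0.21) and Ssr2 (-0.26) did not pass. For Hspa5 and Hsp90b1 the sign was turned by quantile normalization (0.07 and 0.05). The 5 signal recognition particle members were all lower (-0.27 to -0.55), and none of them was called after quantile normalization. In the 12 fits that leave out 1 array, 23 of the 29 passed each time. The other 6 were Srp9 (-0.61 to -0.33; not without sham total array 2 or injured total array 1), Srp14 (-0.53 to -0.28; not without sham total array 1 or 2, injured total array 1 or sham polysome array 2), Srp19 (-0.56 to -0.28; not without sham total array 1 or 2 or sham polysome array 2), Sec61b (-0.60 to -0.34; not without sham total array 2, injured total array 1 or sham polysome array 2), Sec61a1 and Herpud1. Sec61a1 (-0.38 to -0.25) passed in 6 of these fits, and Herpud1 (-0.34 to -0.19) only in that without injured polysome array 2. Members not called in the interaction had 95% intervals between -0.52 and 0.26.

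The members are bright probe sets, and the changes of all genes depended on brightness. Of 37 members, 25 lay in the 2 brightest deciles of the genes tested. In those deciles the median change of all genes in total RNA was 0.28 and 0.27, while that of the members in them was 0.38 and 0.33. The interaction had all-gene medians of -0.37 and -0.31 there, and member medians of -0.48 and -0.41. On polysomes they were -0.07 and -0.02 for all genes, and -0.15 and -0.12 for members. In these 2 deciles the members' medians thus stood closer to those of all genes than over the whole list. This did not hold in every decile. On polysomes the 3 members in the decile of means from 9.19 to 9.76 had a median of -0.30, against -0.10 for all genes. The 1 member in the decile from 7.03 to 7.45 changed by 0.41 in total RNA and -0.62 in the interaction. All genes there had medians of -0.02 and -0.04. The 1 member in the decile from 7.45 to 7.89 went the other way, at -0.04 and 0.02 against 0.07 and -0.14.

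**Figure D4:**
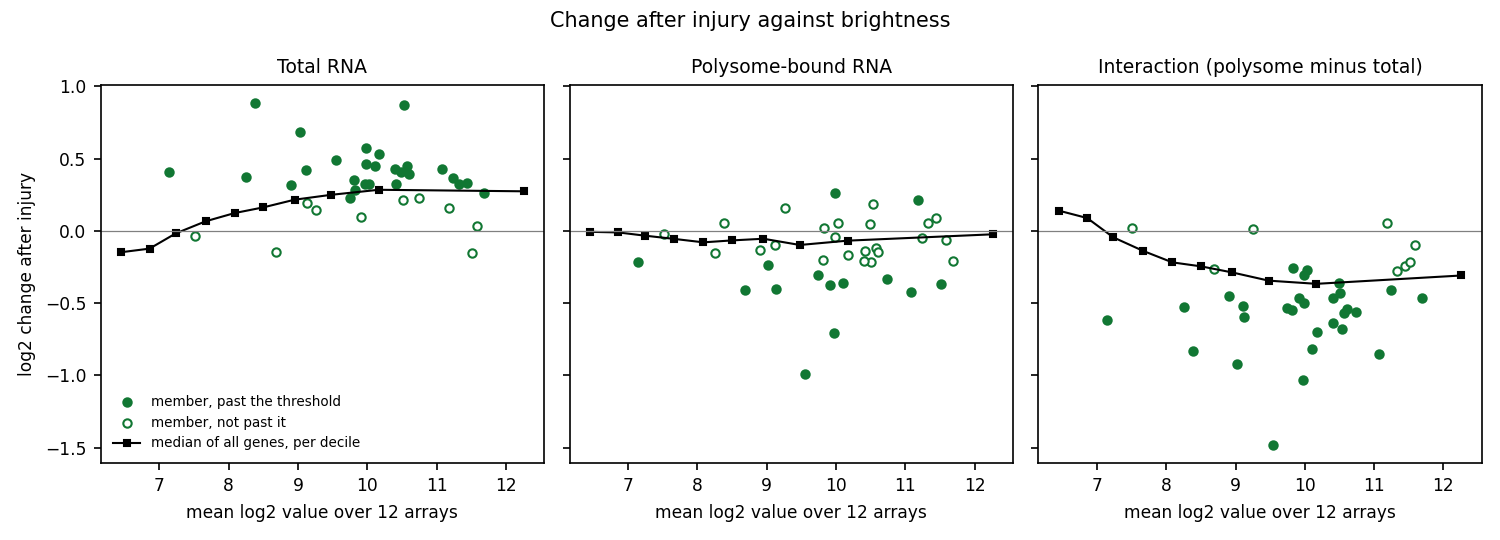
Log2 change after injury of each member against its mean log2 value over 12 arrays, in total RNA, polysome-bound RNA and the interaction; filled points passed the threshold, and the black line joins the medians of all genes in deciles of brightness, drawn at the middle of each decile. The line in total RNA climbs from -0.15 in the dimmest decile to 0.28 and 0.27 in the brightest ones, where most members lie.

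The fraction comparisons ask which transcripts were over- or under-represented on polysomes. In sham cord 12 members were higher on polysomes than in total RNA and 17 lower, against 21.0% and 59.1% of all genes. In injured cord 4 were higher and 26 lower, against 13.6% and 72.7%. These counts follow the scale of the fractions: the all-gene medians were -0.30 and -0.41 as deposited, 0.05 and 0.05 after quantile normalization, and 0.21 and 0.19 after centring. With centring 29 members were higher and 0 lower in sham cord, and 16 higher and 13 lower in injured cord, against 54.3% and 18.9%, and 53.0% and 23.7%, of all genes. With quantile normalization 9 were higher and 12 lower, and 9 higher and 20 lower, against 38.2% and 29.1%, and 40.9% and 32.4%. Relative to the median of all genes, the members' median in sham cord was 0.30 as deposited and -0.06 after quantile normalization, so no direction for the list is given. In injured cord the same value was -0.06 as deposited and -0.24 after quantile normalization.

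Single members had these differences. In sham cord Sec61b (0.84, SE 0.12), Srp14 (0.65, SE 0.10) and Sec62 (0.60, SE 0.06) had the largest excess on polysomes, and Stt3a (-0.51), Canx (-0.50) and Stt3b (-0.49) the largest deficit among members whose groups did not overlap. With centring 0 members were lower in sham cord, so these deficits rest on the scale. That of Stt3a did not pass after quantile normalization either. Under all 3 scales Sec61b, Srp14, Sec62, Srp19, Srp68, Spcs1 and Pdia6 were higher on polysomes in sham cord. Sec62 read 11.93, 11.87 and 11.87 on sham polysomes and 11.85, 11.84 and 11.80 on injured polysomes, all above its total RNA values. Its probe set 1433704_s_at gave the opposite sign in sham cord (-0.36), and fell by 0.28 after injury on polysomes. In injured cord Sec62 (0.50), Rpn1 (0.37), Sec61b (0.34) and Srp14 (0.23) were higher under all 3 scales. Of these, Sec61b did not pass without injured total array 3 or without injured polysome array 2 or 3, and Srp14 did not pass without injured total array 2 or 3 or without injured polysome array 2 or 3; over the 12 fits that leave out 1 array they spanned 0.24 to 0.50 and 0.12 to 0.36. The lowest were Ssr4 (-1.88, SE 0.15, 3.67-fold lower), Canx (-1.35, SE 0.07) and Stt3a (-1.35, SE 0.10). They are among 13 members lower in injured cord under all 3 scales. For calls alike on 3 scales no share of all genes was computed. These comparisons use the same arrays as the injury comparisons and add no independent evidence to them.

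**Figure D5:**
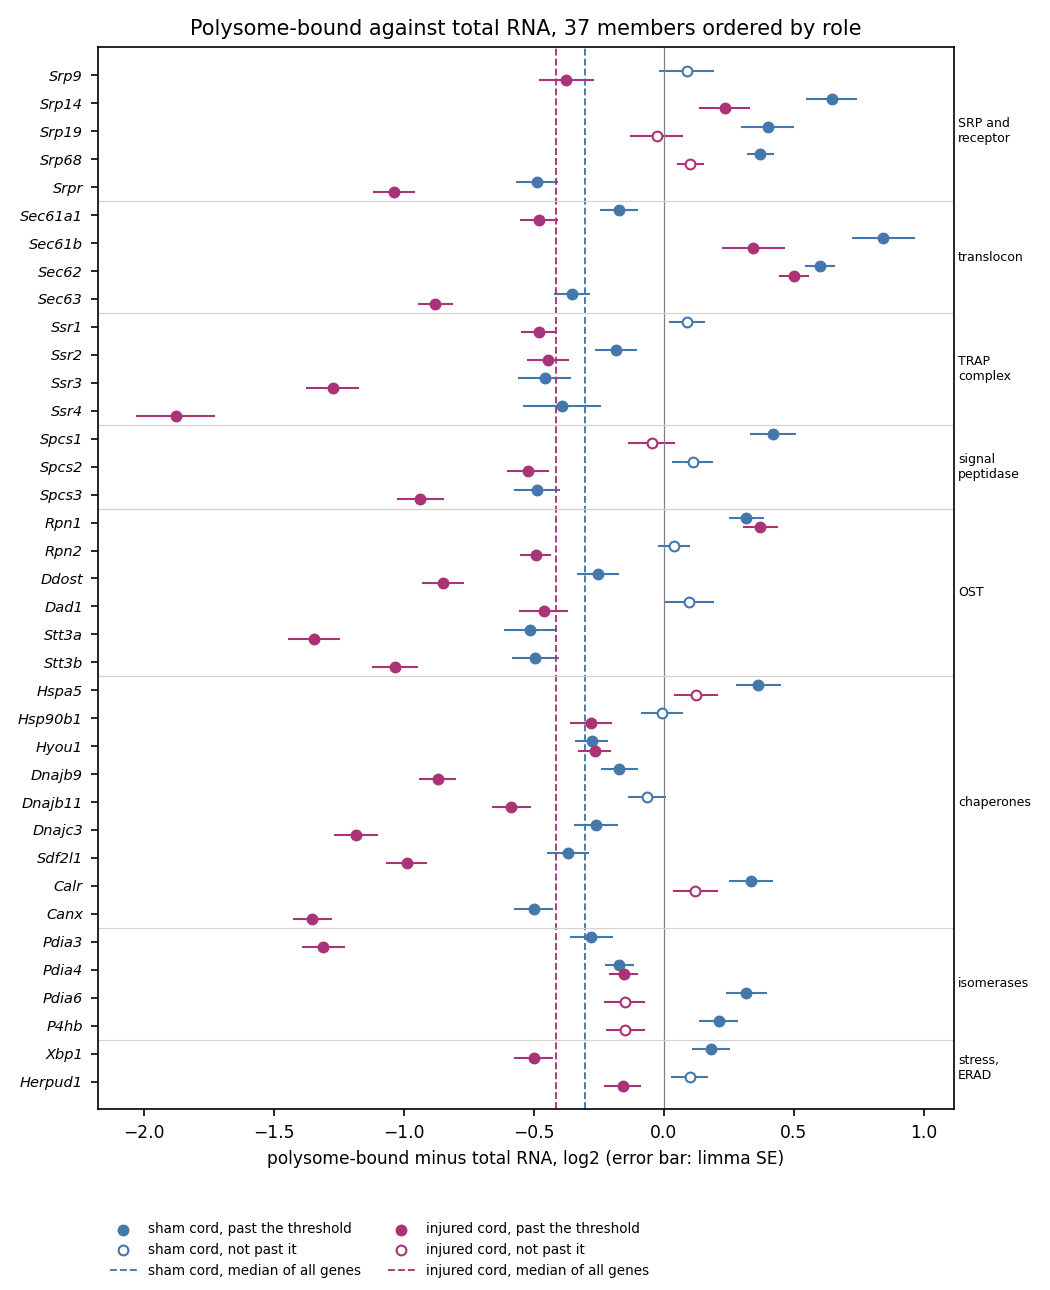
Polysome-bound minus total RNA (log2, with the limma standard error) of 37 members grouped by role, in sham cord (blue) and injured cord (purple); filled points passed the threshold and dashed lines are the medians of all genes, -0.30 and -0.41. Points of injured cord mostly lie to the left of those of sham cord, from -1.88 for Ssr4 to 0.50 for Sec62.

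The changes of members with and without a motif stretch were set side by side, with no test. The 8 members with an ERSE or ERSE-II stretch had a median change of 0.33 in total RNA with 6 called higher, against 0.37 with 18 of 23 higher among the other tested members with a promoter. On polysomes the medians were -0.17 with 4 of 8 lower and -0.16 with 7 of 23 lower. In the interaction they were -0.37 with 5 of 8 lower and -0.55 with 20 of 23 lower. Of all genes 42.1% rose in total RNA, 25.3% fell on polysomes and 39.3% were lower in the interaction. These counts and shares are for the deposited scale only. Within the 8, changes in total RNA ran from -0.15 for Calr to 0.69 for Dnajc3.

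Other genes of the route were taken from lists and not by how they moved. Their counts stand beside the shares of all genes: 42.1% rose and 18.1% fell in total RNA, and 13.7% rose and 25.3% fell on polysomes (22.8% and 18.0%, and 22.3% and 18.1%, after quantile normalization). Of 17 other targeting and translocation genes tested, 10 rose and 1 fell in total RNA (median 0.21), and 1 rose and 10 fell on polysomes (median -0.26). Emc4, a subunit of the ER membrane protein complex that inserts membrane proteins, rose by 0.38 in total RNA and fell by 0.92 on polysomes (adjusted p = 7.25e-07). Sec11c, a catalytic subunit of signal peptidase, fell by 0.85 and Sec61a2, the second form of the pore subunit, by 0.55 on polysomes; Sec61a2 rose by 0.41 in total RNA. Get4 and Sec11a rose by 0.45 and 0.43 in total RNA. After quantile normalization the counts of this list were 4 rises and 4 falls in total RNA and 2 rises and 8 falls on polysomes.

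Of 26 other glycosylation genes, 8 rose and 3 fell in total RNA (median 0.08; 42.1% and 18.1% of all genes), and 1 rose and 11 fell on polysomes (median -0.09; 13.7% and 25.3%). Alg5, which makes dolichol-phosphate glucose, rose by 0.38 and Alg2, a mannosyltransferase, by 0.30, whereas Uggt1, which reglucosylates unfolded glycoproteins, fell by 0.42 in total RNA. On polysomes Dpm2 and Alg14 fell by 0.49 and 0.54, and Dhdds, which makes the dolichol chain, rose by 0.31. Of 31 other folding genes, 16 rose and 1 fell in total RNA (median 0.19), and 2 rose and 12 fell on polysomes (median -0.20). Tmx1, Dnajc10 and Mcfd2 rose by 0.49, 0.47 and 0.47 in total RNA, and Erp44, Txndc12 and Creld1 fell by 0.53, 0.49 and 0.42 on polysomes. Erp44 retains folding enzymes in the early secretory pathway. After quantile normalization the folding genes gave 6 rises and 5 falls in total RNA, and 4 rises and 8 falls on polysomes; the glycosylation genes gave 3 and 5, and 3 and 10.

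Of 22 genes of ER-associated degradation, 12 rose and 2 fell in total RNA (median 0.19; 42.1% and 18.1% of all genes), and 4 rose and 9 fell on polysomes (median -0.09; 13.7% and 25.3%); after quantile normalization 3 rose and 3 fell in total RNA, and 6 rose and 6 fell on polysomes. Ube2j1, the membrane-bound ubiquitin-conjugating enzyme of the route, rose by 0.52 in total RNA and fell by 0.64 on polysomes. Edem3 and Vcp, the ATPase that extracts substrates, rose by 0.49 and 0.36 in total RNA, and Ubxn8 and Edem2 fell by 0.39 and 0.37 on polysomes. The sensors and transcription factors of the unfolded protein response formed the last list: of 17 tested, 13 rose and 2 fell in total RNA (median 0.31), and 4 rose and 2 fell on polysomes (median 0.05). After quantile normalization 10 rose and 1 fell in total RNA, and 8 rose and 1 fell on polysomes. Ppp1r15b, a regulatory subunit of the phosphatase that acts on eIF2 alpha, rose by 0.80 in total RNA and by 0.51 on polysomes. Atf6 rose by 0.44 and Nfyc, an NF-Y subunit, by 0.36 in total RNA. On polysomes Nfyb, another NF-Y subunit, fell by 0.42 and Creb3 rose by 0.26. No test compared these lists with each other.

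Markers of other cells moved between the same groups, and their part in the members' changes was not tested. In total RNA 4 of 6 astrocyte markers rose and none fell, with summed log2 values of 62.0 to 62.5 in sham and 64.6 to 64.7 in injured cord; on polysomes 2 rose and 3 fell, with sums of 58.1 to 59.0 and 57.3 to 57.8. Of 7 monocyte and neutrophil markers, 4 rose and 2 fell in each fraction (sums of 57.0 to 59.1 and 62.2 to 65.5 in total RNA, and 52.5 to 53.4 and 53.1 to 56.5 on polysomes). The falls were of Ltf and Camp in total RNA, and of Lyz2 (-1.04) and Camp on polysomes. Of 4 microglia markers, 3 fell in total RNA (36.7 to 36.9 against 33.9 to 34.8) and 2 on polysomes (33.7 to 34.3 against 31.9 to 32.9). Of the lymphocyte and plasma cell markers, Cd3e and Cd79a were measured and fell in total RNA (sums of 14.2 to 14.4 against 14.0 to 14.1), and Cd79a was above the absent controls on no array. Neuron markers gave 4 rises and 2 falls of 7 in total RNA, and 2 and 2 on polysomes; of 5 oligodendrocyte markers none was called in total RNA and 1 fell on polysomes. Endothelial and fibroblast markers each gave 2 rises and 1 fall of 5 in total RNA and 2 falls on polysomes, Pmp22, the Schwann cell marker measured, rose in total RNA and fell on polysomes, and none of 3 muscle markers was called. The wider 3′ to 5′ differences of the Gapdh and Actb control probe sets after injury, which Pcx and Tfrc did not show on polysomes, also stand beside the polysome falls given above, and their part in those falls was not tested.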

How the data were processed

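RNA of 12 spinal cord samples was hybridised to Affymetrix arrays, 3 in each of 4 groups taken from the sample titles and source names. The values are the authors' deposited log2 summaries, 1 per probe set and array; the scale was read from their range, and background correction and normalization are not given in the sources used here. How they were scaled between fractions is therefore unknown. Symbols came from the platform annotation: of 22690 probe sets, 20393 carried 1 symbol, 691 several and 1606 none.

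A probe set was kept if 3 or more arrays read it above their own 25th percentile, and each gene was read from its brightest one, which left 10371 genes. limma 3.58.1 (statmod 1.5.0, R 4.3.3) fitted 4 group means to all 12 arrays, with an intensity trend, 8 residual and 14.1 moderated degrees of freedom. The 5 comparisons were two-sided and adjusted by Benjamini-Hochberg over all genes at 0.05. Intervals are at 95%. The code was tested on simulated data. An exact permutation test of 3 arrays against 3 cannot go below 0.1, so none is given. The number of arrays limits the precision.

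Values on every array are given for Hspa5, Hsp90b1, Xbp1 and Herpud1 and for the members with the largest changes past the threshold whose groups do not overlap (up to 4 each way in an injury comparison or the interaction, up to 3 in a fraction comparison), and of the other pathway lists the 3 genes of lowest adjusted p. For the interaction the overlap was judged on differences of equally numbered samples, which entered no test. The members, lists, motifs and rules were chosen with earlier results of these data known. Alternatives were 2 other filters, averaging all probe sets of 1 gene, each probe set alone, quantile normalization, median centring, no trend, a block for the replicate number, and each array left out in turn. Excluding _s_at and _x_at probe sets (which can match more than 1 transcript), a block within operation, and the count of members called alike on 3 scales were chosen after seeing the data.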

Additional observations from a re-analysis of the deposited data

Results flagged for a closer look

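In 29 members the change after injury differed between total and polysome-bound RNA, by the interaction term of the limma fit with adjusted p under 0.05 over 10371 genes. The difference (change on polysomes minus change in total RNA, log2) was below 0 in each of the 29. In the signal recognition particle and its receptor it was -0.46 for Srp9, -0.41 for Srp14, -0.43 for Srp19, -0.27 for Srp68 and -0.55 for Srpr. In the translocon it was -0.31 for Sec61a1, -0.50 for Sec61b and -0.53 for Sec63, and in the TRAP complex -0.57 for Ssr1, -0.82 for Ssr3 and -1.48 for Ssr4. The signal peptidase subunits gave -0.47 for Spcs1, -0.63 for Spcs2 and -0.45 for Spcs3. In the oligosaccharyltransferase the values were -0.53 for Rpn2, -0.60 for Ddost, -0.56 for Dad1, -0.83 for Stt3a and -0.54 for Stt3b. Among chaperones they were -0.70 for Dnajb9, -0.52 for Dnajb11, -0.92 for Dnajc3, -0.62 for Sdf2l1 and -0.85 for Canx. The disulfide isomerases gave -1.03 for Pdia3, -0.47 for Pdia6 and -0.36 for P4hb. The regulator Xbp1 gave -0.68, and Herpud1, of ER-associated degradation, gave -0.26. After quantile normalization 14 of the 29 passed, and Sec61a1 (0.016) and Herpud1 (0.073) changed sign. Herpud1 passed in 1 of the 12 fits that leave out 1 array. Ssr4 was not called once _s_at and _x_at probe sets were excluded. The share of all genes called lower was 39.3%, or 18.1% after quantile normalization. The 3′ minus 5′ difference of the Gapdh control probe sets was 0.87 in sham and 2.83 in injured cord on polysomes, and 0.23 and 1.40 in total RNA; that of Pcx was 2.50 and 2.47 on polysomes, and 2.16 and 2.45 in total RNA. The part of these in the interaction values was not tested.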

How the results depend on the processing

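Scaling moved the counts of called members most. With quantile normalization 11 members rose and 3 fell in total RNA (27 and 0 as deposited), 4 rose on polysomes (2 as deposited), 2 were higher and 14 lower in the interaction (0 and 29), and 9 were higher on polysomes in injured cord (4). With median centring 4 rose on polysomes after injury; 29 were higher and 0 lower on polysomes in sham cord (12 and 17), and 16 higher and 13 lower in injured cord (4 and 26). The number that rose on polysomes after injury was 0 when all probe sets of 1 gene were averaged and 1 without _s_at and _x_at probe sets. The cause of these shifts was not tested. Leaving out 1 array at a time, the members that rose in total RNA numbered 24 to 32 and those that fell 0 to 1 (1 without injured polysome array 1); on polysomes 1 to 3 rose (1 without sham polysome array 2 or 3) and 10 to 16 fell. In those fits the interaction was higher in 0 and lower in 23 to 30 members. Polysome excess was called in 10 to 13 and deficit in 13 to 17 members of sham cord, and in 2 to 4 (2 without injured total array 3 or injured polysome array 3) and 24 to 26 of injured cord.

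Single values were followed for 16 members in 3 comparisons, 48 in all. Outside the fits that leave out an array, 4 values that had passed turned sign and 2 that had not passed turned sign and passed. After quantile normalization Sec62 in total RNA was -0.24 (adjusted p = 0.00593), and the interactions of Sec61a1 and Herpud1 were 0.016 and 0.073. Without _s_at and _x_at probe sets Ssr4 was -0.031 in total RNA and 0.031 in the interaction, and Xbp1 on polysomes was -0.29 (adjusted p = 0.0358). Of 480 combinations of a value and an alternative, 432 stayed on their side of the threshold with no turn of a called value, 31 no longer passed and 11 newly passed; of 576 with an array left out these were 534, 32 and 10. Values that had not passed turned sign in 17 of the 480 (Hspa5 and Hsp90b1 in the interaction among them) and in 10 of the 576, among them Sec62 in total RNA and Srp14 on polysomes; values that had passed turned in 0 of the 576.

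The groups share replicate numbers, but the labels do not tie equal numbers to 1 animal. Deviations of equally numbered total and polysome arrays correlated at 0.23, 0.18 and 0.17 in sham and at -0.10, 0.20 and 0.10 in injured cord. Unequally numbered pairs correlated at -0.16 to -0.04 in sham and at -0.24 to 0.12 in injured cord. In injured cord total array 1 correlated best with polysome array 2. These values do not settle whether equal numbers are paired. The fits reported have no block, and equal numbers served only to choose which interactions are described in full. With the replicate number as a random block 27 members rose in total RNA, 11 fell on polysomes and 28 were lower in the interaction, and with a fixed block 27, 12 and 29; sham polysome deficit was called in 16 and 15. In the interaction Herpud1 was not called with the random or the fixed block, and Hsp90b1 was called with the fixed one. A block within operation gave 27, 12 and 29. All 37 members lay above the absent controls on every array, and each group had 3 arrays. What limited the precision most was not tested.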

Other observations

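Some probe sets carry a member together with other genes, so their values belong to no single gene and entered no comparison. There were 5 of them. Probe sets 1416153_at and 1425665_a_at carry Srp54a, which codes for the subunit that binds the signal sequence, with its near copies Srp54b and Srp54c, and 1416154_at carries Srp54a and Srp54b. In total RNA 1416153_at had a mean of 10.85 ± 0.04 (sham) and 11.23 ± 0.14 (injured), and on polysomes 11.43 ± 0.05 and 11.47 ± 0.09 (log2, SD, n = 3). For 1425665_a_at the means were 10.35 and 10.86 in total RNA, and 10.88 and 10.52 on polysomes. The dimmer 1416154_at went the other way in total RNA, with means of 7.32 ± 0.10 in sham and 6.75 ± 0.10 in injured cord, and had 6.35 and 6.28 on polysomes. Probe set 1423090_x_at, which carries Sec61g with Gm11575 and Gm10177, had 9.98 and 10.40 in total RNA, and 10.26 and 10.10 on polysomes. Probe set 1427862_at, which carries Sec61b with Gm10320, had 6.85 and 6.78 in total RNA, and 6.53 and 6.48 on polysomes. In total RNA 3 of the 5 thus had a higher mean and 2 a lower mean after injury, and none of these differences was tested.

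Of 37 members, 23 had further kept probe sets, 46 in all. Where the brightest probe set was called in total RNA, 18 of the further ones were called in the same direction, 4 in the opposite one and 12 were not called. On polysomes these numbers were 7, 1 and 13, and in the interaction 18, 2 and 14.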
